A study of Sus scrofa with 12 samples.

Results

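Transforming growth factor beta (TGF-beta) signalling in arterial endothelial cells (ECs) was followed through 10 genes: the ligands TGFB1, TGFB2 and TGFB3, the activin subunit INHBA, the receptors TGFBR1, TGFBR2 and TGFBR3, the signal transducers SMAD2 and SMAD3, and the co-repressor SKIL. All 10 were found among the 21153 genes of the count table by matching pig Ensembl identifiers to symbols. All 10 also passed the filter on low values in every comparison. Primary arterial ECs of 3 pigs, called donors 1, 2 and 3 below, were exposed for 48 h to laminar wall shear stress (WSS), the frictional force of flow on the vessel wall, at 1 of 3 levels, 2, 30 or 80 dyne/cm2. The level of 30 dyne/cm2 stands for physiological arterial flow, 2 dyne/cm2 for the low and 80 dyne/cm2 for the supra-high WSS of aneurysms. The 12 RNA libraries hold a culture of every donor at low and at supra-high WSS and a pair of cultures of every donor at 30 dyne/cm2, the latter labelled as 2 sets. No genetic change or drug is named for any culture, and all were grown in DMEM with fetal calf serum and heparin on gelatin. The labels call the cells aortic and the methods describe coronary arteries of pigs aged 8 months, and the sex is given in neither. The labels also describe another flow slide and a denser seeding for 80 dyne/cm2 and its controls than for 2 dyne/cm2 and its controls, whereas the methods name the same slide throughout.

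TGF-beta ligands are secreted in a latent form, held by their propeptide and by binding proteins of the matrix, and act only once released. The active ligand binds TGFBR2, which phosphorylates TGFBR1, which in turn phosphorylates SMAD2 and SMAD3, and these enter the nucleus with SMAD4. In the vessel wall the pathway is known for its part in matrix production, endothelial quiescence, endothelial-to-mesenchymal transition and vascular stability, and ECs carry in ENG and ACVRL1 a second arm that signals through SMAD1 and its relatives. Feedback is provided by inhibitory SMADs, ubiquitin ligases and nuclear co-repressors such as SKIL.

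Levels are given as CPM, the counts scaled to a common library size, normalised between the 12 libraries, and changes as log2 fold changes ± standard error (SE) with the donor as a term in the fit. A gene is said to have risen or fallen where the adjusted p of edgeR's quasi-likelihood test was under 0.05. Cultures at 2 dyne/cm2 were compared with set 1 at 30 dyne/cm2 and cultures at 80 dyne/cm2 with set 2. The labels number the sets and do not state which set served which condition. So both comparisons with 30 dyne/cm2 were also made with the other set. The test of whether they differ was also made with the sets exchanged. If the pairing used here is right, these alternatives also cross the flow slide and seeding density that the labels describe. CPM take no account of transcript length, so levels are compared between cultures and not between genes. In RNA of whole cultures, fewer cells of a type and less RNA per cell cannot be told apart.

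Library totals lay between 29606854 and 41058902 counts. The matrix genes FN1 and THBS1 together took 8.11 to 14.7% of the counts at 2 dyne/cm2, 3.52 to 4.87% and 4.54 to 7.34% in sets 1 and 2, and 1.55 to 2.28% at 80 dyne/cm2. The 9 endothelial markers with a row in the table, among them PECAM1 and CDH5, were present in every library. They summed to 4979 to 5961 CPM at 2 dyne/cm2, the lowest sum. It was 7227 to 8329 and 6752 to 7895 CPM in sets 1 and 2, and 8666 to 8857 CPM at 80 dyne/cm2. At 2 vs. 30 dyne/cm2, 4 of the 9 fell, 1 rose and 4 did neither. ROBO4 had its highest mean at 2 dyne/cm2 (236 CPM) and CDH5 its lowest in set 2 (1648 CPM). The list of 8 smooth muscle markers summed to 49.8 to 88.6 CPM over all libraries, of which SMTN alone gave 44.1 to 83.2 CPM, and DES was at 3 counts or fewer in each. MYOCD, the transcriptional coactivator of smooth muscle genes, was at 4.58 ± 0.66 CPM at 2 dyne/cm2 (SD, n = 3), 0.70 ± 0.94 and 1.24 ± 1.38 CPM in sets 1 and 2, and 0.40 ± 0.53 CPM at 80 dyne/cm2 (2 vs. 30 dyne/cm2, edgeR adjusted p = 0.0571). LMOD1 of the same list went the other way. Its means were 0.972 CPM at 2 dyne/cm2, 1.931 and 3.001 CPM in sets 1 and 2, and 3.933 CPM at 80 dyne/cm2. Of 3 smooth muscle markers tested at 2 vs. 30 dyne/cm2, 2 were higher and 1 was lower, and none passed. Of 8 leukocyte markers, PTPRC, CD3E and MS4A1 were at that floor in all libraries, and the list summed to 11.6 to 33.6 CPM. The 9 fibroblast and pericyte markers summed to 365 to 1309 CPM at 2 dyne/cm2. Their sum was 164 to 307 and 128 to 724 CPM in sets 1 and 2, and 50.3 to 183 CPM at 80 dyne/cm2. RGS5 was at the floor throughout, and collagen genes made up most of the sum. Of 7 tested at 2 vs. 30 dyne/cm2, 4 rose and 1 fell. CSPG4 went against the sum, with means of 0.019 CPM at 2 dyne/cm2, 2.96 and 0.94 CPM in sets 1 and 2, and 3.86 CPM at 80 dyne/cm2. The part of these markers in the results below was not tested. A fit without FN1 and THBS1, which are on none of the marker lists, was also made.

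RNA of a ligand, of its signalling receptor and of a co-repressor was lower under low WSS. At 2 vs. 30 dyne/cm2, TGFB1, TGFBR1 and SKIL fell and no member rose, against 12.4% of 11226 tested genes that fell and 13.4% that rose. None of the 3 changes reached 2-fold, a size that 4.54% of all genes passed downwards and 5.06% upwards together with the adjusted p. At 80 vs. 30 dyne/cm2 none of the 10 genes rose or fell, where 4.36% of 11187 genes rose and 4.04% fell, and 1.14% and 1.05% did so by at least 2-fold. An unadjusted edgeR p under 0.05 was found at 2 dyne/cm2 for 5 of the 10 genes, beside 42.5% of all genes: the 3 that fell, and TGFB2 and INHBA, which were higher and passed in DESeq2. Under supra-high WSS it was found for 3, TGFB1, TGFB3 and SMAD2, none of which passed in DESeq2, beside 26.1% of all genes. The 10 genes had a median log2 fold change of -0.15 at low and of -0.04 at supra-high WSS, beside 0.0025 and -0.0058 over all genes tested.

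**Figure D1:**
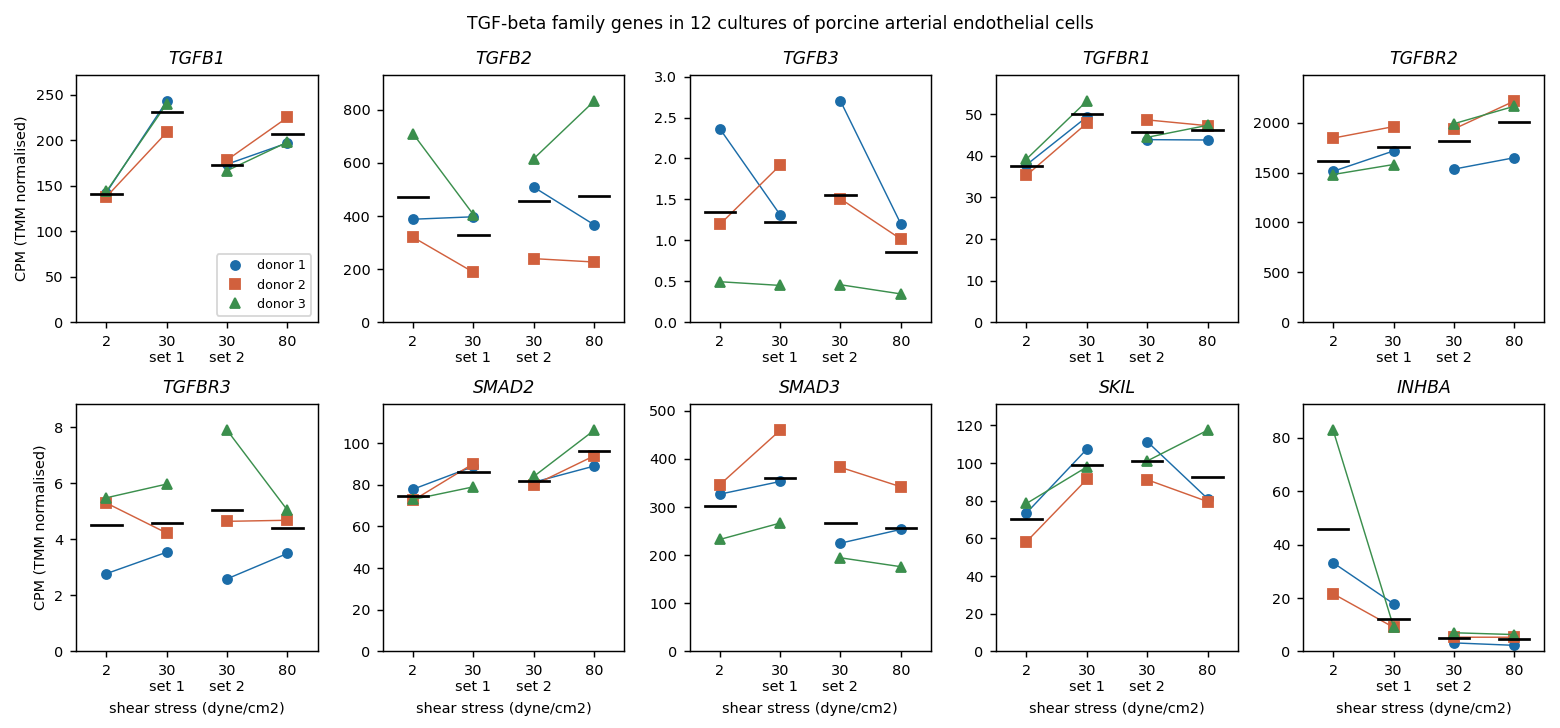
CPM of the 10 genes in the 12 cultures, by WSS in dyne/cm2 and set; each symbol is 1 culture of a donor, coloured lines join the 2 cultures compared within a donor, and black bars are means of 3 donors. TGFB1, TGFBR1 and SKIL lie lower at 2 dyne/cm2 than in set 1 in each donor, while TGFB2, TGFB3, TGFBR3 and SMAD3 are spread mainly by donor.

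TGFB1, the most widely expressed of the 3 TGF-beta ligands in the vasculature (chr6:49332169-49348642, Sscrofa11.1, gene ENSSSCG00000003017), gave the firmest change. Its level in donors 1, 2 and 3 was 243, 209 and 240 CPM in set 1 and 142.5, 138 and 144 CPM at 2 dyne/cm2. Every culture at 2 dyne/cm2 was below every culture of set 1, and the drop was of like size in each donor. The log2 fold change was -0.69 ± 0.08 (95% interval -0.90 to -0.48, edgeR adjusted p = 0.00881), and RNA dropped by 37.9%. With the other set as control the drop was smaller, -0.29 on the log2 scale with an edgeR adjusted p of 0.0404, and TGFB1 fell in all 14 alternative analyses. Levels at 80 dyne/cm2 were 197, 225 and 198 CPM against 174, 178 and 167 CPM in set 2. All 3 cultures at 80 dyne/cm2 lay above all of set 2, with a log2 fold change of 0.25 ± 0.08 (95% interval 0.06 to 0.45) that did not pass the test (edgeR adjusted p = 0.111). Against set 1 the same cultures gave -0.16, so the direction at 80 dyne/cm2 depended on the control set.

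The 2 sets at 30 dyne/cm2 themselves differed in TGFB1. Set 2 lay below set 1 in each donor without overlap, with a log2 difference of -0.40 ± 0.08 and an edgeR adjusted p of 0.115. Only 2 of 11163 genes (0.0179%) passed the test between the sets, and neither was a member. Of the 10 genes 4 had an unadjusted edgeR p under 0.05, TGFB1, TGFB2, SMAD3 and INHBA, beside 19.2% of all genes, and the same 4 passed in DESeq2, beside 4.26%. Ordered by mean, TGFB1 stood at 231 ± 19.1 CPM in set 1 (SD, n = 3), 207 ± 15.9 at 80 dyne/cm2, 173 ± 5.91 in set 2 and 141 ± 3.16 at 2 dyne/cm2, where set 1 and 80 dyne/cm2 overlapped and the other neighbours did not. Flow slide, seeding density and set cannot be told apart in this design.

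TGFB2 (chr10:8306136-8435307, ENSSSCG00000010816), the isoform that depends most on the co-receptor TGFBR3 for binding, differed more between donors than between WSS levels. In donors 1, 2 and 3 it was at 397, 188 and 405 CPM in set 1 and at 388, 320 and 710 CPM at 2 dyne/cm2. Donors 2 and 3 were higher at 2 dyne/cm2 and donor 1 was not, and the groups overlapped. The log2 fold change of 0.53 ± 0.19 did not pass the test (edgeR adjusted p = 0.105). Without donor 1 it was 0.81 with an edgeR adjusted p of 0.0293. Levels in set 2 were 509, 240 and 616 CPM and at 80 dyne/cm2 367, 227 and 833 CPM, so donor 1 was lower and donor 3 higher at 80 dyne/cm2. The log2 fold change there was -0.04 ± 0.16 (95% interval -0.42 to 0.34, edgeR adjusted p = 0.896). Set 2 was above set 1 in each donor, by 0.45 ± 0.08 on the log2 scale (edgeR adjusted p = 0.107).

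TGFB3 (chr7:99133873-99162239, ENSSSCG00000002385), the third ligand, had only 11 to 97 counts per library, which limits what can be seen. Donor 3 had the lowest level in each group, between 0.346 and 0.495 CPM, and donors 1 and 2 lay between 1.02 and 2.70 CPM. At 2 dyne/cm2 the donors went in different directions, with a log2 fold change of 0.14 ± 0.37 (95% interval -0.81 to 1.08). Supra-high WSS gave a lower level in 3 of 3 donors, at 1.201, 1.02 and 0.346 CPM against 2.70, 1.51 and 0.458 CPM in set 2. The groups overlapped and the log2 fold change of -0.80 ± 0.27 did not pass the test (edgeR adjusted p = 0.111).

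INHBA (ENSSSCG00000035077) encodes the subunit whose dimer is activin A, a ligand that also signals through SMAD2 and SMAD3. It had the largest difference of the 10 genes at 2 dyne/cm2 and just missed the threshold. Levels in donors 1, 2 and 3 were 33.2, 21.6 and 82.8 CPM at 2 dyne/cm2 and 17.9, 9.03 and 9.27 CPM in set 1. All cultures at 2 dyne/cm2 were above all of set 1, but by unequal amounts, with log2 differences of 0.89, 1.25 and 3.15. The fitted log2 fold change was 1.76 ± 0.48 (95% interval 0.54 to 2.98, 3.39-fold) with an edgeR adjusted p of 0.0521. The result depended on the donors, the model and the control set. The edgeR adjusted p was 0.0206 without donor 1, 0.0951 without donor 2, 0.0207 without donor 3, where the log2 fold change was 1.08, and 0.0735 with no donor term, and DESeq2 gave an adjusted p of 9.2e-05. Against the other set the log2 fold change was 3.01 (edgeR adjusted p = 0.00859). In set 2 INHBA was at 3.20, 5.33 and 6.997 CPM and at 80 dyne/cm2 at 2.30, 5.32 and 6.33 CPM, which overlapped, with a log2 fold change of -0.20 ± 0.16 (edgeR adjusted p = 0.458). Set 2 lay below set 1 in all 3 donors, by a log2 difference of -1.18 ± 0.39 that was not called (edgeR adjusted p = 0.207). The group means ran from 45.9 ± 32.5 CPM at 2 dyne/cm2 through 12.1 ± 5.03 in set 1 and 5.18 ± 1.90 in set 2 to 4.65 ± 2.10 at 80 dyne/cm2, a 9.86-fold span, and only set 2 and 80 dyne/cm2 overlapped among neighbours.

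TGFBR1 (chr1:240842735-240918267, ENSSSCG00000005382), the type I receptor kinase also known as ALK5, was lower at 2 dyne/cm2 in each donor. In donors 1, 2 and 3 it was at 49.3, 47.8 and 53.1 CPM in set 1 and at 37.8, 35.3 and 39.2 CPM at 2 dyne/cm2, with no overlap. The log2 fold change was -0.40 ± 0.08 (95% interval -0.61 to -0.20, edgeR adjusted p = 0.0246), and RNA dropped by 24.4%. The call was lost when any donor was left out, at edgeR adjusted p of 0.124, 0.0708 and 0.0667 without donors 1, 2 and 3, and against the other set (-0.28, adjusted p = 0.0737). Under 80 dyne/cm2 TGFBR1 was at 43.8, 47.2 and 47.3 CPM beside 43.9, 48.6 and 44.4 CPM in set 2. These values overlapped, and the interval of the log2 fold change, -0.18 to 0.20, bounds the change at that WSS.

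The type II receptor TGFBR2 (chr13:16784370-16875828, ENSSSCG00000011226) was measured at 1481 to 2217 CPM in the 12 libraries. Its log2 fold change was -0.11 ± 0.11 at 2 dyne/cm2, lower in 3 of 3 donors, and 0.14 ± 0.12 at 80 dyne/cm2, higher in 3 of 3 donors. Neither passed the test (edgeR adjusted p = 0.511 and 0.490), the groups overlapped, and the 95% intervals ran from -0.40 to 0.19 and from -0.13 to 0.41. The co-receptor TGFBR3 or betaglycan (chr4:125109939-125310788, ENSSSCG00000006911) had 93 to 310 counts and 2.59 to 7.89 CPM per library. Its log2 fold changes were -0.03 ± 0.19 and -0.10 ± 0.22 at 2 and 80 dyne/cm2, with donors on both sides of 0 and intervals of -0.52 to 0.46 and -0.61 to 0.41.

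Of the transducers, SMAD2 (chr1:97415360-97511388, ENSSSCG00000004505) was lower at 2 dyne/cm2 and higher at 80 dyne/cm2 in each donor. In donors 1, 2 and 3 it was at 88.8, 90.2 and 79.0 CPM in set 1 and 77.9, 72.6 and 73.0 CPM at 2 dyne/cm2, and at 81.3, 79.9 and 84.0 CPM in set 2 and 89.0, 93.9 and 106.2 CPM at 80 dyne/cm2. Both pairs of groups were free of overlap. Neither change passed the test by itself, with log2 fold changes of -0.19 ± 0.08 (edgeR adjusted p = 0.147) and 0.23 ± 0.08 (edgeR adjusted p = 0.131). SMAD3 (chr1:164998457-165124455, ENSSSCG00000004952), the partner that binds DNA directly, showed a different picture. At 2 dyne/cm2 it was at 327, 347 and 233 CPM against 353, 460 and 267 CPM in set 1, lower in each donor with overlapping groups (log2 fold change -0.22 ± 0.10, edgeR adjusted p = 0.157). With set 2 as control, at 225, 383 and 195 CPM, the sign turned to 0.22. Under supra-high WSS SMAD3 was at 254, 342 and 176 CPM, a log2 fold change of -0.05 ± 0.10 from set 2 (edgeR adjusted p = 0.801). Set 2 was below set 1 in each donor by 0.45 ± 0.09 on the log2 scale (edgeR adjusted p = 0.115).

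SKIL (chr13:109029831-109059176, ENSSSCG00000011746), which encodes SnoN, a nuclear repressor of SMAD complexes that is itself induced by TGF-beta, fell at 2 dyne/cm2. In donors 1, 2 and 3 it was at 107, 91.4 and 97.9 CPM in set 1 and at 73.5, 58.3 and 78.5 CPM at 2 dyne/cm2, without overlap. The log2 fold change was -0.49 ± 0.10 (95% interval -0.74 to -0.24, edgeR adjusted p = 0.0256), and RNA dropped by 28.8%. The call was lost without donor 1 (edgeR adjusted p = 0.109), without donor 2 (0.0739) and with no donor term in the fit (0.0724). Under 80 dyne/cm2 SKIL was at 81.1, 79.6 and 117 CPM against 111, 91.2 and 101 CPM in set 2. Donors 1 and 2 were lower and donor 3 was higher, and the log2 fold change was -0.15 ± 0.13 (edgeR adjusted p = 0.492). The 2 sets were alike in SKIL, with a log2 difference of 0.04 ± 0.06.

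**Figure D2:**
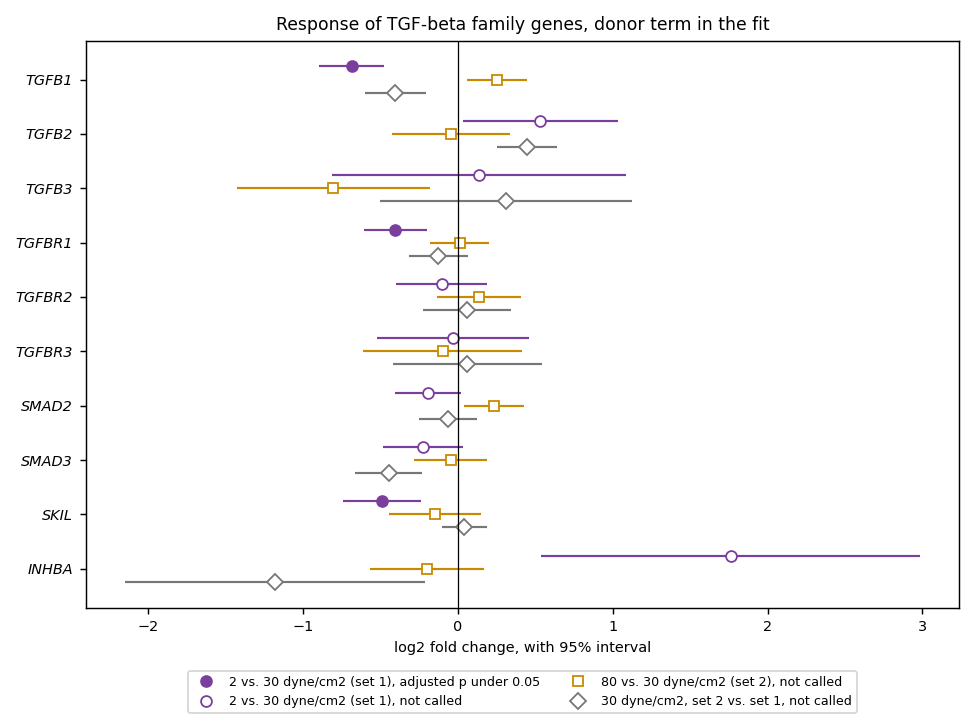
Log2 fold changes with 95% intervals for 2 vs. 30 dyne/cm2 (circles), 80 vs. 30 dyne/cm2 (squares) and set 2 vs. set 1 at 30 dyne/cm2 (diamonds); filled symbols have an edgeR adjusted p under 0.05. Filled symbols appear for TGFB1, TGFBR1 and SKIL at 2 dyne/cm2 only, and the interval of INHBA at 2 dyne/cm2 is the widest of that comparison, 0.54 to 2.98.

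Counting cultures without a test, groups did not overlap in 5 of the 10 genes at 2 vs. 30 dyne/cm2, beside 37.8% of all genes tested, with TGFB1, TGFBR1, SMAD2 and SKIL below and INHBA above the control. At 80 vs. 30 dyne/cm2 this held for TGFB1 and SMAD2, both above, beside 14.9% of all genes. Between the 2 sets it held for TGFB1 and INHBA, both lower in set 2, beside 10.1% of all genes. No test was made of these counts.

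Whether low and supra-high WSS differed in their effect was tested directly, as the response to 80 minus the response to 2 dyne/cm2, each against its own set, over 12 libraries. The responses differed for TGFB1, TGFBR1 and SMAD2, where 37.1% of 11568 genes did so. For TGFB1 the difference was 0.94 ± 0.12 on the log2 scale (95% interval 0.66 to 1.21, edgeR adjusted p = 0.000527), positive in 3 of 3 donors. For TGFBR1 it was 0.41 ± 0.11 (edgeR adjusted p = 0.0172) and for SMAD2 0.42 ± 0.12 (edgeR adjusted p = 0.0235), also positive in each donor. All 3 depended on which set was taken as the control of which condition. With the control sets exchanged the difference was 0.11 for TGFB1 (edgeR adjusted p = 0.564), 0.15 for TGFBR1 (0.383) and 0.28 for SMAD2 (0.138), and none passed. The TGFB1 difference passed in the other 12 of 13 alternative analyses. Among them was 80 compared with 2 dyne/cm2 directly, without the control sets (0.52, edgeR adjusted p = 0.00105). By the labels, the cultures of that comparison also differ in flow slide and seeding density, which cannot be told apart from WSS there. The SMAD2 difference was lost when any donor was left out (edgeR adjusted p = 0.0873, 0.132 and 0.0659 without donors 1, 2 and 3). The TGFBR1 difference was lost without donor 1 (edgeR adjusted p = 0.111) and without donor 3 (0.130). For INHBA the difference of -1.90 ± 0.69 had an edgeR adjusted p of 0.0569, and for SKIL, TGFB2, TGFB3, TGFBR2, TGFBR3 and SMAD3 the adjusted p lay between 0.135 and 0.850. With the sets exchanged, INHBA at -4.56 and SMAD3 at -0.74 passed (edgeR adjusted p = 0.00228 and 0.0117). In 7 of the 10 genes the 2 responses had opposite signs, which was the case for 65.3% of 11042 genes.

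The 10 genes fell apart by how much of their variation followed the donor. Of the sum of squares of log2 CPM over the 12 libraries, the donor accounted for 84.2% in TGFB3, 81.0% in TGFBR3, 78.7% in TGFB2 and 69.0% in SMAD3. In the same decomposition the culture group, which is WSS and set together, accounted for 93.4% in TGFB1, 86.4% in TGFBR1, 81.3% in INHBA, 76.5% in SMAD2 and 59.6% in SKIL. TGFBR2 lay between, at 42.0% for the donor and 32.9% for the group, and the medians over 11568 genes were 31.1% and 41.7%. Donor means over 4 libraries spanned 4.33-fold in TGFB3 (1.90, 1.41 and 0.437 CPM in donors 1, 2 and 3), 2.63-fold in TGFB2 (415, 244 and 641 CPM) and 1.76-fold in SMAD3 (290, 383 and 217.5 CPM). Those of TGFB1 spanned 1.01-fold, at 189.0, 187 and 187 CPM. So TGFB1 was almost equal between these pigs while its fellow ligands were not. Donor 3 had the highest TGFB2 and the lowest TGFB3 and SMAD3 means.

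**Figure D3:**
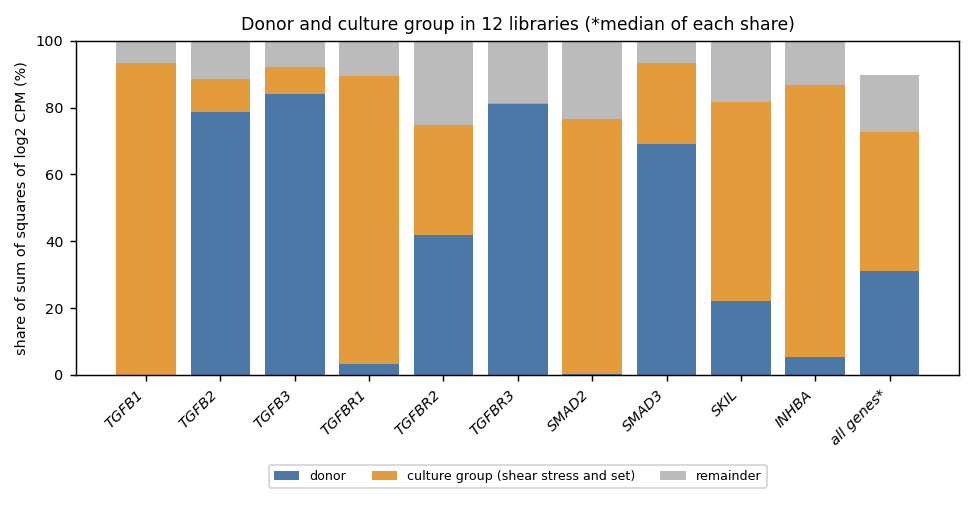
Share of the sum of squares of log2 CPM over 12 libraries that follows the donor (blue), the culture group (orange) and the remainder (grey), in percent; the last bar stacks the separate medians over all genes and so stays below the full height. The donor share is 84.2% in TGFB3 and 0.047% in TGFB1.

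After the donor mean was taken out of each gene, the profile of TGFB1 over the 12 libraries was most like those of ITPRIP, KIF5B and EVA1A among 10138 genes with a symbol, with Pearson correlations of 0.986, 0.980 and 0.976. For TGFBR1 the closest were F2RL3, YES1 and TTC9C (0.983, 0.980 and 0.963) and for SKIL FBXO11, FBP1 and COL24A1 (0.962, 0.961 and 0.954). Within the family, TGFB1 and TGFBR1 had a correlation of 0.92, TGFBR2 and SMAD2 of 0.87, and TGFBR1 and SKIL of 0.80. These values describe 12 libraries that share 3 donors and 4 culture groups.

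The wider pathway was described with 5 lists of related genes, which hold 72 different genes with a row in the table. Of 60 that could be tested, 8 rose and 16 fell at 2 vs. 30 dyne/cm2, or 13.3% and 26.7%, beside the 13.4% and 12.4% of all genes given above, with a median log2 fold change of -0.03. At 80 vs. 30 dyne/cm2, 8 rose and 3 fell, or 13.3% and 5%, beside 4.36% and 4.04% of all genes. Of the calls named below, 13 of 20 at 2 dyne/cm2 were kept in each fit with a donor left out and 18 with the other control set. At 80 dyne/cm2 1 of 11, VEGFA, was kept in each such fit and none against the other set. With no donor term in the fit, 14 of the 20 and 0 of the 11 passed.

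Among genes of latency and activation, LTBP1, FURIN and PCSK5 fell under low WSS, and under supra-high WSS they rose against set 2 and did not pass against set 1. At 2 dyne/cm2, 3 of 13 tested fell and 2 rose, beside 12.4% and 13.4% of all genes. LTBP1, which anchors the latent complex in the matrix, was at 188 ± 67.6 CPM (SD, n = 3) against 638 ± 260 CPM in set 1 (log2 fold change -1.71 ± 0.17, edgeR adjusted p = 0.00660). FURIN, the protease that cleaves the TGF-beta precursor, was at 227 ± 30.3 against 400 ± 30.9 CPM (-0.81 ± 0.13, edgeR adjusted p = 0.0158), and its relative PCSK5 fell by 1.00 on the log2 scale (edgeR adjusted p = 0.0128). These 3 calls were kept in all 14 alternative analyses. THBS1, a matrix protein that can release active TGF-beta, rose 2.92-fold (1.54 ± 0.23, edgeR adjusted p = 0.0142) and LTBP3, another latency protein, 2.31-fold (1.21 ± 0.20, edgeR adjusted p = 0.0166). The THBS1 call was lost without donor 1 and without donor 2, with edgeR adjusted p up to 0.111. At 80 dyne/cm2, 4 of 13 rose and none fell, beside 4.36% and 4.04% of all genes. BMP1, a metalloprotease that can cleave LTBP1, rose by 0.91 ± 0.11 on the log2 scale (edgeR adjusted p = 0.00665). PCSK5 rose by 0.73 ± 0.11, LTBP1 by 0.55 ± 0.13 and FURIN by 0.47 ± 0.11 (edgeR adjusted p = 0.0368). Against the other set, BMP1 at 0.71, PCSK5 at 0.56, LTBP1 at 0.30 and FURIN at 0.23 did not pass, and without donor 3 BMP1 had an edgeR adjusted p of 0.0731. PCSK5, LTBP1 and FURIN also lost their calls at 80 dyne/cm2 without donor 2 and without donor 3 (highest edgeR adjusted p = 0.0556, 0.146 and 0.208).

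In the activin axis 7 of 12 genes could be tested. At 2 dyne/cm2, 1 fell and none rose, beside 12.4% and 13.4% of all genes. FSTL1, a secreted follistatin-like glycoprotein, fell from 2799 ± 556 to 875 ± 259 CPM (log2 fold change -1.68 ± 0.20, edgeR adjusted p = 0.00878). None passed at 80 dyne/cm2. Among 10 tested co-receptors and members of the BMP arm, SMAD9, a transducer of BMP signals, rose at 2 dyne/cm2 from 6.24 ± 1.18 to 14.6 ± 2.91 CPM (1.24 ± 0.22). CD109, a co-receptor that dampens TGF-beta signalling, fell by 0.81 ± 0.13 and ACVRL1, the endothelial type I receptor ALK1, by 0.52 ± 0.10 (edgeR adjusted p = 0.0229). The ACVRL1 call was lost without donor 1 and without donor 2, with an edgeR adjusted p of up to 0.117, that of CD109 without donor 1 (0.0636) and that of SMAD9 without donor 3 (0.0530). ENG, the endothelial co-receptor endoglin, gave 0.15 ± 0.13 at 2 dyne/cm2 and 0.12 ± 0.13 at 80 dyne/cm2. SMAD1, another BMP transducer, rose at 80 dyne/cm2 by 0.55 ± 0.12 (edgeR adjusted p = 0.0321), which did not pass without donor 2 or without donor 3, with an edgeR adjusted p of up to 0.214.

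In the SMAD machinery, 6 of 18 tested genes fell and 2 rose at 2 dyne/cm2, beside the 12.4% and 13.4% of all genes. PMEPA1, a membrane protein that limits SMAD activation and is a TGF-beta target itself, went from 266 ± 30.8 to 104 ± 22.7 CPM (log2 fold change -1.36 ± 0.10, edgeR adjusted p = 0.00403). SMURF2, a ubiquitin ligase for SMADs and the receptor, fell by 1.27 ± 0.15 (edgeR adjusted p = 0.00849), and inhibitory SMAD7 by 0.60 ± 0.12 (edgeR adjusted p = 0.0241), the latter without a call when donor 2 or donor 3 was left out (highest edgeR adjusted p = 0.0714). TGIF1, a co-repressor of SMADs, was at 28.2 ± 5.02 CPM against 51.7 ± 8.26 CPM in set 1, but set 2 was at 28.1 ± 5.42 CPM, and the log2 fold change went from -0.86 ± 0.13 to 0.01 with that set. Its relative TGIF2 rose by 0.91 ± 0.16 and the ubiquitin ligase NEDD4L by 0.50 ± 0.09, the latter not called without donor 1 or without donor 3 (highest edgeR adjusted p = 0.0987). SMAD4, the common partner, was lower in 3 of 3 donors at -0.24 ± 0.10 and did not pass (edgeR adjusted p = 0.144). Under supra-high WSS, TGIF2 fell by 0.44 ± 0.10 (edgeR adjusted p = 0.0418) and lost its call without donor 2 and without donor 3 (highest edgeR adjusted p = 0.210), and SMAD7 was at -0.47 ± 0.15 (edgeR adjusted p = 0.0957).

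Genes known as TGF-beta targets did not move together at 2 dyne/cm2. There 3 of 16 rose and 7 fell, beside 13.4% and 12.4% of all genes. Among those that fell, PMEPA1, SMAD7 and TGIF1 were also counted in the SMAD machinery. TGFBI, a secreted adhesion protein, rose from 29.3 ± 19.1 to 105 ± 61.1 CPM (log2 fold change 2.03 ± 0.28, edgeR adjusted p = 0.0119) and CCN2, the matricellular protein CTGF, from 1256 ± 438 to 4916 ± 1081 CPM (2.02 ± 0.31, edgeR adjusted p = 0.0147). COL1A2, a chain of type I collagen, rose by 0.96 ± 0.21, but was at -0.11 with the other set and missed the threshold without donor 2 (edgeR adjusted p = 0.0503). On the other side BHLHE40, a transcriptional repressor, went from 230.0 ± 45.6 to 31.5 ± 9.07 CPM, 7.34-fold lower (-2.88 ± 0.23, edgeR adjusted p = 0.00479), and NEDD9, a scaffold of focal adhesions, from 260 ± 34.7 to 91.4 ± 13.02 CPM (-1.50 ± 0.17). At 80 dyne/cm2, 3 of 16 rose and 2 fell, beside 4.36% and 4.04% of all genes. VEGFA, the endothelial growth factor, rose by 0.96 ± 0.12 (edgeR adjusted p = 0.00678), BHLHE40 by 0.50 ± 0.09 and the cell cycle inhibitor CDKN1A by 0.48 ± 0.10, but against the other set BHLHE40 was at -0.23 and CDKN1A at 0.07. FN1, fibronectin, fell from 45240 ± 13510 to 10970 ± 1566 CPM, 4.04-fold lower (-2.01 ± 0.28, edgeR adjusted p = 0.00806), and TGFBI by 0.73 ± 0.17. Without donor 3 the FN1 call was lost (edgeR adjusted p = 0.158), as were those of BHLHE40, CDKN1A and TGFBI without donor 2 or donor 3 (highest edgeR adjusted p = 0.127, 0.138 and 0.250). CCN2 was at -0.23 ± 0.12.

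**Figure D4:**
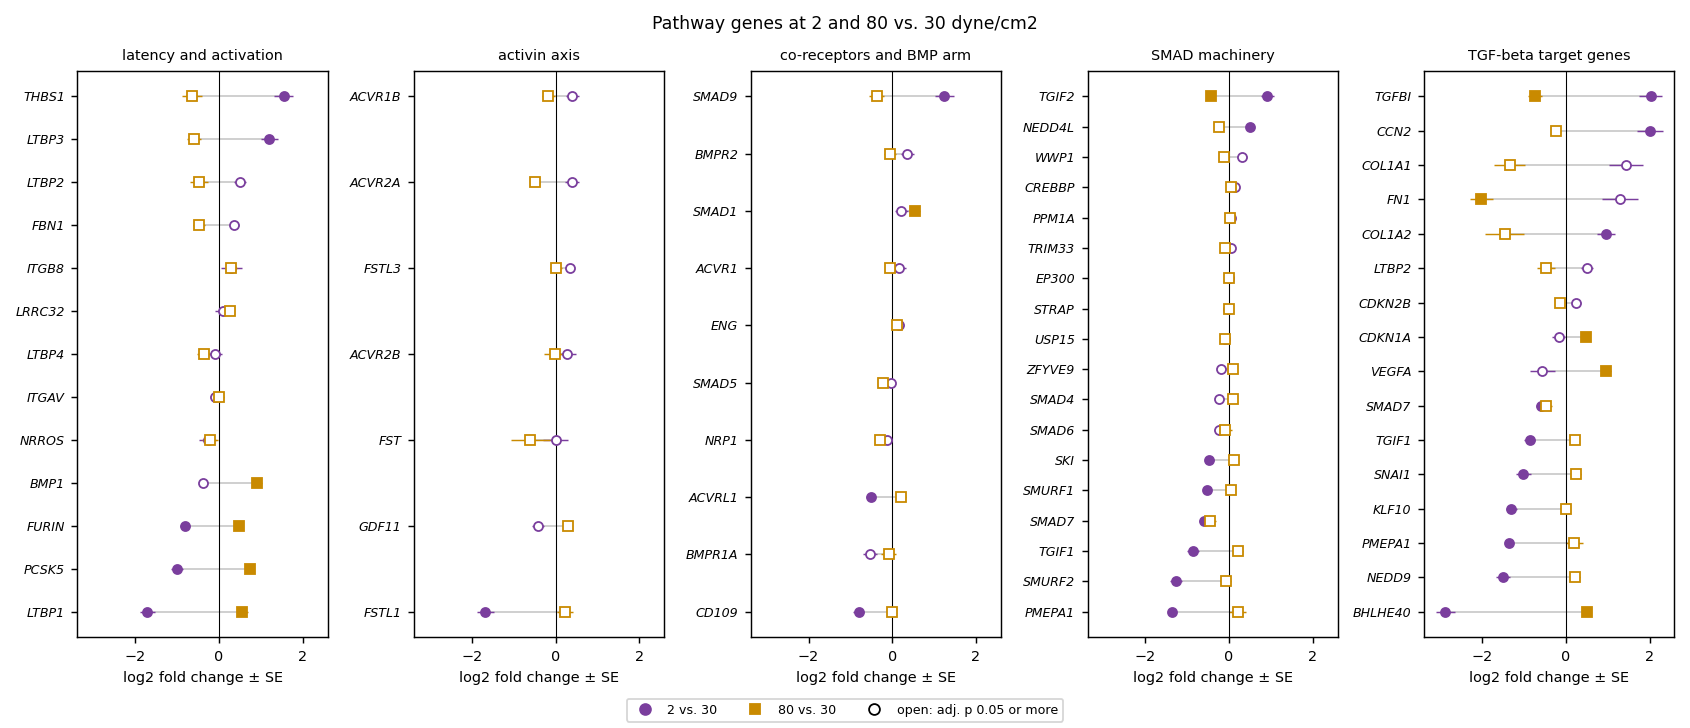
Log2 fold changes ± SE of the tested genes of the 5 pathway lists at 2 (circles) and 80 (squares) vs. 30 dyne/cm2, sorted by the change at 2 dyne/cm2; open symbols have an edgeR adjusted p of 0.05 or more. BHLHE40 at -2.88 and TGFBI at 2.03 mark the ends of the target list at 2 dyne/cm2, and grey lines join both values of a gene.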

How the data were processed

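RNA of 12 cultures was sequenced single-end (TruSeq, HiSeq2000). The authors aligned them with STAR 2.4 (build Sscrofa11.1), kept those with a single location and tallied them per gene over merged exons using featureCounts 1.4.6. The deposited table holds raw counts, not normalised, of 21153 genes, of which 14572 could be given a symbol. Gene positions are those of RefSeq for the same assembly, joined by symbol. None is given for INHBA, since its RefSeq entry is not marked as protein-coding and looked misplaced.

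The tests were made with edgeR 4.0.16 in R 4.3.3, using TMM normalisation, the quasi-likelihood test and Benjamini-Hochberg adjustment. A gene was tested if 3 or more of the 6 libraries reached 1 CPM, or 3 of 12 for the difference between responses. SE is the log2 fold change divided by the square root of F. CPM with a prior count of 2 were used for log2 differences within donors, variance shares and correlations. At or under 3 counts in every library a gene was treated as at the floor. Counting intervals are not given. The pig was a block in the main fit, since the source names give the same 3 animals in each group and the methods compare within donor. Same-numbered libraries correlated at 0.672 to 0.876 in their deviations from group means over 11568 genes, and others at -0.552 to -0.190. The negative values of the others follow largely from the centring, since deviations within a group cancel out. The procedure was tested on simulated data.

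All 10 members are named. From each pathway list up to 3 genes per direction and comparison with the largest change among those past the threshold are named, and SMAD4, SMAD7, ENG, ACVRL1 and CCN2 always. A gene of the target list and the rule is not reported here and was left out of all counts. FURIN at 80 dyne/cm2 was added after its value was seen. The members, lists and rule were chosen with earlier results of these data known. Alternatives were RLE normalisation, DESeq2 1.42.0, 3 other filters, no block, dispersion from 12 libraries, the other or both control sets, each donor left out, a 2-fold threshold and, chosen after seeing the data, total counts without TMM, a fit without FN1 and THBS1 and, for the difference between responses, the control sets exchanged or left out by comparing 80 with 2 dyne/cm2. Sequences were not analysed here.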

Additional observations from a re-analysis of the deposited data

Results flagged for a closer look

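For 3 of the 10 genes the response to 80 dyne/cm2 differed from the response to 2 dyne/cm2 in a test of the difference itself over 12 libraries. The difference was 0.936 on the log2 scale for TGFB1 (edgeR adjusted p = 0.000527), 0.405 for TGFBR1 (edgeR adjusted p = 0.0172) and 0.418 for SMAD2 (edgeR adjusted p = 0.0235), each in the same direction in 3 of 3 donors. Over all genes 37.1% passed this test. With the control sets exchanged the 3 values were 0.11, 0.15 and 0.28 and none passed (edgeR adjusted p = 0.564, 0.383 and 0.138). So the result depends on taking set 1 as the control of 2 and set 2 as that of 80 dyne/cm2. The labels do not state which set served which condition. If that pairing is right, the exchanged fit also crosses the flow slide and seeding density that the labels describe. Of the 3, TGFB1 alone passed in each fit with a donor left out. INHBA (-1.90) did not pass, and TGFBR2, whose sign was opposite at the 2 levels in all 3 donors, had a difference of 0.24 with an edgeR adjusted p of 0.297. With 3 cultures per group, single cultures were not examined for being far from the rest.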

How the results depend on the processing

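Of the 3 members that fell at 2 dyne/cm2, 0 passed a 2-fold threshold, 1 to 2 fell with a donor left out, and 2 with no replicate block (TGFB1 and TGFBR1), where pairing by donor was dropped. None rose, but 2 did in DESeq2 (TGFB2 and INHBA), 1 with all 12 libraries, 1 with the other set and 1 with both sets (INHBA each time), and 0 to 2 with a donor left out. No member passed at 80 dyne/cm2 under any alternative. The count of 3 for the difference was 0 at 2-fold, 0 with the control sets exchanged and 1 to 2 with a donor left out. The response at 80 dyne/cm2 was lower in 1 member (INHBA) without donor 1, with total counts and with 80 compared with 2 dyne/cm2 directly, and in 2 (INHBA and SMAD3) with the sets exchanged. Between the sets, DESeq2 called 1 member higher and 3 lower in set 2, and leaving out a donor gave 0 to 2 lower. Of 519 alternative log2 fold changes of members, 29 had the opposite sign, and the cause was not tested. At 2 dyne/cm2 these were TGFB3 (-0.171 with the other set, -0.0415 with both, -0.345 to 0.616 with a donor left out), SMAD3 (0.223, other set) and TGFBR3 (-0.215 to 0.117 with a donor left out). At 80 dyne/cm2 they were TGFB2 (0.0603 without the replicate block, 0.394 with the other set, 0.182 with both, -0.275 to 0.169 with a donor left out), TGFB1 (-0.161, other set), TGFBR1 (-0.123 with the other set, -0.0532 with both, -0.0218 to 0.0324 with a donor left out, -0.021 with total counts, -0.000498 without FN1 and THBS1), and, with a donor left out, SKIL (-0.326 to 0.000819), SMAD3 (-0.163 to 0.00626) and TGFBR3 (-0.343 to 0.215). With the sets exchanged the differences between responses of TGFB2, TGFBR3 and SMAD3 were 0.299, 0.0508 and -0.738, and that of SMAD3 was -0.292 with 80 compared with 2 dyne/cm2 directly. With a donor left out the difference of TGFBR3 ran from -0.47 to 0.216, and set differences from -0.211 to 0.731 for TGFB3, -0.0815 to 0.164 for TGFBR2 and -0.14 to 0.282 for TGFBR3. Pathway genes with the opposite sign were TGIF1 (0.0143) and COL1A2 (-0.111) at 2 dyne/cm2 and BHLHE40 (-0.228) and ENG (-0.104) at 80 dyne/cm2, all with the other set. Over all genes, 2895 calls at 2 dyne/cm2 became 1244 without the block and 4505 with dispersion from 12 libraries, and 1510 to 2008 with a donor left out. The 940 calls at 80 dyne/cm2 became 0 without the block (929 at unadjusted p under 0.05), 26 with the other set, 328 with both, 364 with 12 libraries and 184 to 2080 with a donor left out. The 4294 calls for the difference became 1746 without the block, 2568 with the sets exchanged and 1995 to 3375 with a donor left out, and the 2 calls between sets became 476 in DESeq2, 161 without a filter and 0 to 445 with a donor left out. TGFB3 and TGFBR3 had the fewest counts, which limits their precision.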
